A study of Mus musculus with 8 samples.

Results

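Sox9, Sox5 and Sox6 are the 3 SOX transcription factors of the chondrocyte, and they were followed here in the thoracic annulus fibrosus, the ring of fibrocartilage around the core of the intervertebral disc. They are 3 of the 22180 genes that the array annotation ties to a probe set of their own. Each had 1 such probe set, and all 3 passed the filter on low values that left 15526 genes for testing. The mice were Black 6, as WT or as ENT1-null mice, which lack exons 2 to 4 of Slc29a1, the gene of the adenosine carrier ENT1. Each genotype was sampled at 2 and at 6 months of age with 2 arrays a group, 8 in all, and no treatment was given. Each array held RNA pooled from 5 to 6 thoracic annulus tissues. Separate mice for the 2 pools of each group are not stated in the labels, so the p-values reflect only how far such pools differ, and 2 arrays a group limit the precision.

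SOX9 binds DNA through its HMG box and switches on the genes of the cartilage matrix, such as those of type II collagen and aggrecan. SOX5 and SOX6 lack a transactivation domain of their own, bind DNA as dimers and help SOX9 to occupy the same enhancers, which is why the genes are called a trio. In the mouse, cartilage does not form without Sox9, and it stays rudimentary without Sox5 and Sox6. The annulus arises from the sclerotome, where Sox9 is switched on early, and its inner part keeps a chondrocyte-like matrix. Sox6 also acts outside cartilage, in muscle fibres and in red cell precursors.

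Slc29a1 fell by 1.41 ± 0.09 at 2 and by 1.53 ± 0.09 at 6 months in ENT1-null arrays (log2, SE, adjusted p = 0.00724 and 0.000354, limma), in the direction of the genotype labels. The 2 month call was lost without either 2 month ENT1-null array (−1.34 and −1.48) or 2 month WT replicate 1 (−1.40), and with only the groups compared (adjusted p = 0.0598). All 8 genes chosen to check the tissue, Col1a1, Col2a1, Acan, Comp, Fmod, Mkx, Scx and Tnmd, were above the filter level. Markers of other cells were present as well and differed between the groups. At 6 months all 18 neutrophil genes and all 8 tested erythroid genes were higher in ENT1-null, and 12 of 14 skeletal muscle genes were lower, where 21.2% of all tested genes were higher and 17.6% lower. The mean level of the neutrophil list lay (log2) between 8.46 and 9.92 in 6 month WT and between 11.61 and 11.66 in 6 month ENT1-null, without overlap. The erythroid list had means of 7.76 to 8.51 in WT and 9.99 to 10.31 in ENT1-null at 6 months, and 7.36 to 7.85 against 8.91 to 9.05 at 2 months. For neutrophils at 2 months the means were 8.60 to 9.82 in WT and 10.56 to 10.92 in ENT1-null, and 0 of 18 genes passed (limma, 17 at an unadjusted p below 0.05). The muscle means were 10.14 to 10.29 in WT and 7.38 to 8.44 in ENT1-null at 6 months, and 8.0 to 9.22 against 8.79 to 10.32 at 2 months, where they overlap. Of 8 macrophage genes 7 were higher in ENT1-null at 6 months and 0 at 2 months. Their means at 6 months were 7.91 to 7.93 in WT and 8.97 to 9.29 in ENT1-null. All markers of these 4 lists with a probe set of their own passed the filter, and 4 of 12 erythroid markers had none. In pooled tissue, fewer cells of a type and less RNA per cell cannot be told apart.

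**Figure D1:**
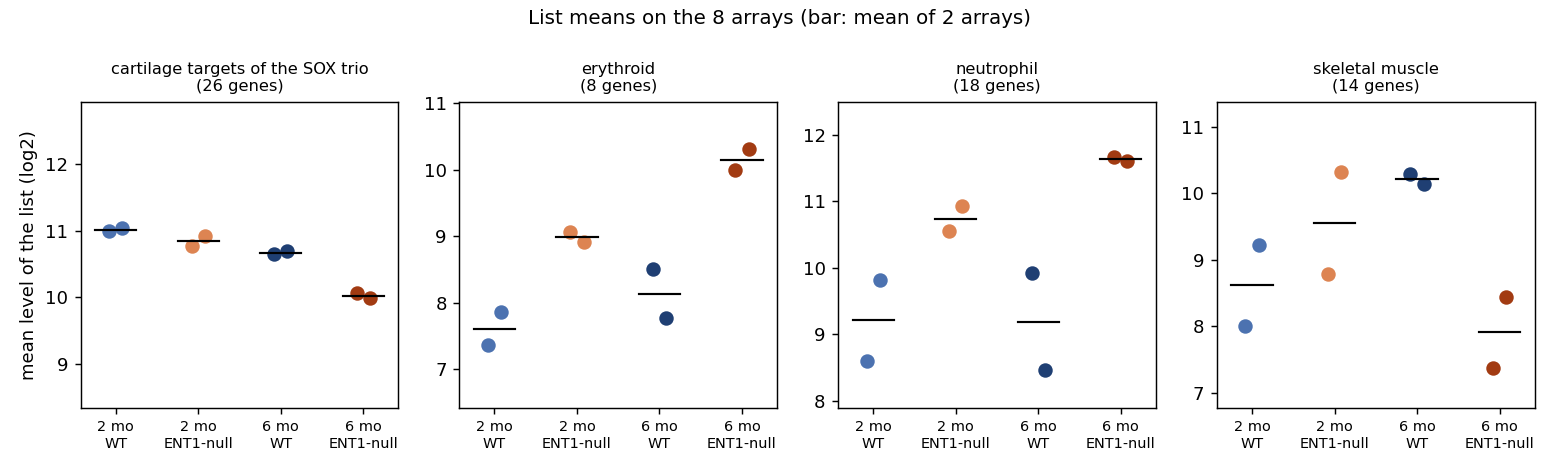
Mean log2 level of each list on each array, 1 point an array and a bar for the mean of the 2 arrays of a group; the list panels have axes of equal span. The mean of the cartilage targets lies at 9.99 and 10.07 in the 6 month ENT1-null arrays and above 10.6 in all others, and the erythroid and neutrophil means are highest in those 2 arrays.

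The sequences that follow show the letters that SOX proteins are known to read, in the windows that RefSeq (build GRCm38.p6) gives around start sites of Sox5 and Sox6, and the mature microRNAs of 2 host genes under SOX9 control. The table of windows of 300 bases (250 before to 50 after a start) held 1 window for Sox5 and 6 for Sox6, and no entry was matched for Sox9. The Sox5 window lies inside the span of the gene (143828425 to 144782287), far from its upstream end, so the start it surrounds is an internal one. The motifs searched on both strands were AACAAT and ACAATG, which share 5 letters and so can overlap. The first stood in 10.7% and the second in 12.6% of all 32851 windows, and at least 1 of them in 18.7%. Capitals mark the matches on either strand, and each sequence is written 5′ to 3′ along the gene's strand.
Sox5, chr6:143947107-143947356, minus strand, the 250 bases before the start: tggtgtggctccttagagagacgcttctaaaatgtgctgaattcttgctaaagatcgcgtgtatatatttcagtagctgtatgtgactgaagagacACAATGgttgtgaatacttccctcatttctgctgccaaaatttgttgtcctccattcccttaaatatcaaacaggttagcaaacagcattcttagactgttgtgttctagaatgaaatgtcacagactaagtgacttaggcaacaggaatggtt
Sox6, chr7:115824911-115824960, minus strand, 50 bases of 1 of its 6 windows: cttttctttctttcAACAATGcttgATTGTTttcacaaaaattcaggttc
Papss2, chr19:32619758-32619787, plus strand, 30 bases of its window: tatgttttagttATTGTTtttctccaagca

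The Sox5 window held 1 match, and 2 of the 6 Sox6 windows held at least 1. The Sox6 stretch holds AACAAT and its reverse complement ATTGTT facing each other across 5 bases, the arrangement that SOX dimers are known to bind. With a gap of 3 to 5 bases, such a pair stood in 5 of the 32851 windows (0.0152%). Of the 27 cartilage targets described further on, 21 had windows, and 3 of these genes held a match: Papss2, Prelp and Epyc. By window the share was 16% (4 of 25), against 18.7% of all windows. A match is a run of letters, not a site shown to be bound.

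Sox9, on chromosome 11 (112782210 to 112787757, GRCm38), is the member without which the cartilage programme does not start. On the log2 scale the 2 month WT arrays read 12.21 and 12.17 for it, followed by 11.83 and 11.83 in 2 month ENT1-null, 11.92 and 12.08 in 6 month WT, and 10.86 and 10.91 in 6 month ENT1-null. The 2 arrays of 6 month ENT1-null were the lowest of the 8 by a wide margin. At 6 months Sox9 fell by 1.11 ± 0.09 in ENT1-null (n = 2 and 2, adjusted p = 0.000383, limma, Benjamini-Hochberg over 15526 genes), which is 2.16-fold lower, with a 95% interval of −1.31 to −0.91. Only 235 of the tested genes had a more negative difference. The neutrophil and erythroid lists were higher and the muscle list lower in the same arrays, and their part in the Sox9 fall was not tested. At 2 months the difference was −0.36 ± 0.09 (adjusted p = 0.0859), with an interval of −0.56 to −0.16, and it did not pass.

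Sox5, on chromosome 6 (143828425 to 144782287), encodes a partner of SOX9 on cartilage enhancers. Its level was 9.62 and 9.55 in 2 month WT, 9.45 and 9.42 in 2 month ENT1-null, 9.48 and 9.37 in 6 month WT, and 8.55 and 8.57 in 6 month ENT1-null. The 6 month ENT1-null arrays again stood below all others, while the other 6 arrays lay between 9.37 and 9.62. Sox5 fell by 0.87 ± 0.08 in ENT1-null at 6 months (1.83-fold lower, adjusted p = 0.000439, limma, interval −1.06 to −0.68), with 472 genes more negative. At 2 months the difference was −0.15 ± 0.08 (adjusted p = 0.37, limma), with an interval of −0.33 to 0.04. As for Sox9, the part of other cells in the pools in the Sox5 fall was not tested.

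Sox6, on chromosome 7 (115470872 to 116040776), encodes the near relative of SOX5 that shares its place on cartilage enhancers. Its level was 9.64 and 9.62 in 2 month WT, 9.64 and 9.50 in 2 month ENT1-null, 9.64 and 9.61 in 6 month WT, and 9.51 and 9.76 in 6 month ENT1-null. The 2 arrays of 6 month ENT1-null held its lowest but 1 and its highest value, and the genotypes overlapped at 6 months. The difference was 0.01 ± 0.10 at 6 months (adjusted p = 0.929, limma, interval −0.23 to 0.26) and −0.06 ± 0.10 at 2 months (adjusted p = 0.783, interval −0.30 to 0.18). The sign at 6 months turned with quantile normalization applied again (−0.09) and without 6 month ENT1-null replicate 2 (−0.11), so no direction was resolved. In this tissue the probe set also reads Sox6 RNA from any muscle fibres or red cell precursors in the pools, whose markers are given above, and their part in the Sox6 level was not tested.

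**Figure D2:**
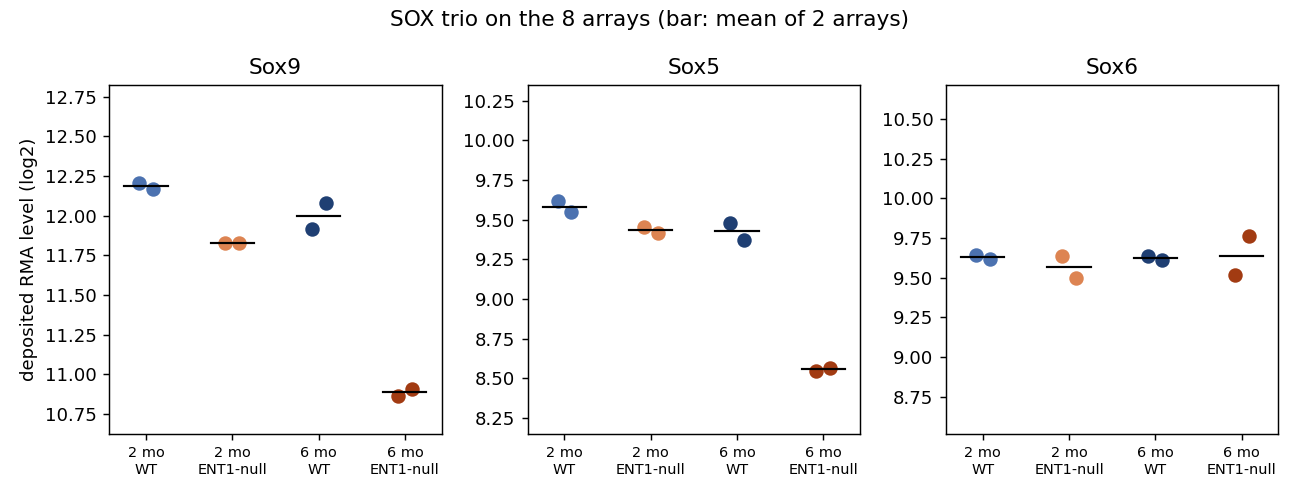
Deposited log2 level of Sox9, Sox5 and Sox6 on each of the 8 arrays by group, 1 point an array and a bar for the mean of 2; the panels have axes of equal span and differ in offset. Sox9 and Sox5 are lowest in both 6 month ENT1-null arrays (10.86 and 10.91, 8.55 and 8.57), and Sox6 lies between 9.50 and 9.76 throughout.

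At 6 months 38.8% of all tested genes differed between the genotypes (limma, adjusted p below 0.05), with 17.6% lower and 21.2% higher in ENT1-null, so Sox9 and Sox5 were 2 of 2727 genes that fell. At 2 months 0.683% differed, with 0.386% lower and 0.296% higher, and none was a SOX trio gene. The differences of the 3 members were then set against each other within each array, a comparison chosen after their values were seen. Sox9 fell by 1.13 ± 0.11 more than Sox6 at 6 months (adjusted p = 0.000454, limma, interval −1.38 to −0.87), and Sox5 by 0.88 ± 0.10 more than Sox6 (adjusted p = 0.000676, interval −1.12 to −0.65). Sox9 and Sox5 themselves differed by −0.24 ± 0.10, which did not pass (adjusted p = 0.0954, interval −0.48 to −0.01). On a log2 scale of array signal this shows unequal change of the members, not the ratio of their transcripts.

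The genotype difference of Sox9 and of Sox5 was larger at 6 than at 2 months. The interaction was −0.75 ± 0.12 for Sox9 and −0.72 ± 0.11 for Sox5 (adjusted p = 0.0383 for each, limma), where 4.45% of tested genes passed, 1.89% lower and 2.56% higher. It was 0.08 ± 0.15 for Sox6 (adjusted p = 0.795), and −0.02 with quantile normalization applied again. These 2 calls were close to the threshold. They ended with no filter on low values (adjusted p = 0.0546 for Sox9 and 0.0544 for Sox5) and, for Sox5, without any 1 of the 8 arrays, while the Sox9 call was lost without any array but 6 month WT replicate 1 (−0.83 without it). The value itself stayed between −0.83 and −0.67 for Sox9 and between −0.78 and −0.67 for Sox5 when 1 array was left out.

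With age, no gene passed in WT (0 of 15526, limma, 2067 at an unadjusted p below 0.05). Sox9 was −0.19 ± 0.09 from 2 to 6 months in WT (adjusted p = 0.393), Sox5 −0.16 ± 0.08 (adjusted p = 0.444) and Sox6 −0.0044 ± 0.10 (adjusted p = 0.989). In ENT1-null Sox9 fell by 0.94 ± 0.09 with age and Sox5 by 0.88 ± 0.08 (adjusted p = 0.0023 for each, limma), where 22.2% of genes passed, 10.2% lower and 11.9% higher, and Sox6 was 0.07 ± 0.10 (adjusted p = 0.684). These comparisons share arrays with the genotype comparisons and are not separate evidence. By mean level the order for Sox9 was 2 month WT (12.19), 6 month WT (12.00), 2 month ENT1-null (11.83) and 6 month ENT1-null (10.89). Of these neighbours the 2 WT groups did not differ past the threshold, nor did 6 month WT and 2 month ENT1-null (0.17 ± 0.09, adjusted p = 0.341, interval −0.03 to 0.37). For Sox5, 6 month WT and 2 month ENT1-null overlapped (−0.01 ± 0.08, adjusted p = 0.961).

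Of the other 17 SOX genes, 14 passed the filter and Sox1, Sox2 and Sox11 did not. Sox8, which belongs with Sox9 and Sox10 to the SOXE group and is also active in cartilage, fell at 6 months. It lay at 8.46 and 8.49 in 6 month WT arrays against 7.92 and 7.81 in ENT1-null arrays, a difference of −0.61 ± 0.08 (adjusted p = 0.0013, limma). At 2 months Sox8 was −0.29 ± 0.08 (adjusted p = 0.127). Sox10, the neural crest member of the group, was −0.12 ± 0.12 at 6 months (adjusted p = 0.457). Sox13, the remaining SOXD relative of Sox5 and Sox6, was −0.13 ± 0.11 (adjusted p = 0.375). Sox4, a SOXC factor of progenitors, was 0.21 ± 0.17 (adjusted p = 0.366), and Sox12 of the same group 0.02 ± 0.09 (adjusted p = 0.865). Among the endothelial SOXF factors Sox18 was higher by 0.75 ± 0.25 (adjusted p = 0.0494), a call lost without any 1 array of 6 months (0.59 to 0.91) or either 2 month WT array and with no filter, all probe sets or a trended and robust eBayes (0.75 in each of these). Sox17 was 0.21 ± 0.11 (adjusted p = 0.183) and Sox7 −0.03 ± 0.12 (adjusted p = 0.845), and 2 of 7 endothelial markers were higher at 6 months, near the 21.2% of all tested genes. The other 6, Sox3, Sox14, Sox15, Sox21, Sox30 and Sry, lay between −0.09 and 0.06 at 6 months. None of the 14 passed at 2 months (limma, 1 at an unadjusted p below 0.05), and their median at 6 months was −0.04, against −0.03 over all tested genes. The 1 lower and 1 higher of 14 at 6 months compare with 17.6% and 21.2% of all tested genes.

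**Figure D3:**
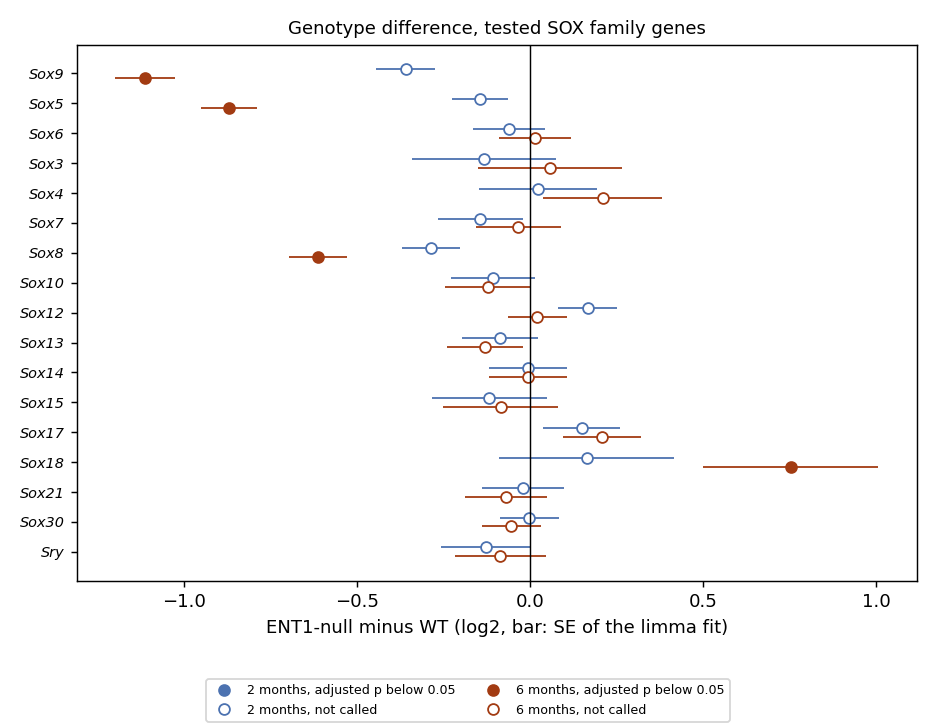
ENT1-null minus WT difference (log2) of the 17 tested SOX family genes at 2 and 6 months, points with error bars of 1 SE, filled where the adjusted p is below 0.05. Sox9, Sox5 and Sox8 are filled on the left at 6 months (−1.11, −0.87 and −0.61), Sox18 on the right (0.75, a call that most left-out arrays end), and no gene is filled at 2 months.

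The list of cartilage genes known to be driven by the SOX trio held 27 genes, of which 26 were tested and Matn4 lay under the filter. At 6 months 20 were lower in ENT1-null, none higher and 6 did not pass, and the median was −0.63, against 17.6% lower and a median of −0.03 over all tested genes. Between 14 and 21 were lower under the alternatives, the fewest without 6 month WT replicate 2. The 6 that did not pass were Col9a2, Col9a3, Col11a2, Matn1, Cytl1 and Epyc. At 2 months none passed (limma, 8 at an unadjusted p below 0.05), the median was −0.15, and 24 of 26 lay below 0, against 9370 of all 15526. At that age Matn1 (−0.55 ± 0.11, adjusted p = 0.0664) and Mia (−0.51 ± 0.13, adjusted p = 0.0898) were the lowest of the list. The neutrophil and erythroid lists were higher and the muscle list lower in the same 6 month arrays, as given above, and their part in these falls was not tested.

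Among the proteins that bind and order the matrix, Hapln1, the link protein that fastens aggrecan to hyaluronan, fell by 1.00 ± 0.10, from 11.61 and 11.75 in 6 month WT arrays to 10.76 and 10.59 (adjusted p = 0.000523, limma). Ucma, a small secreted protein of cartilage, was 12.71 and 12.66 against 11.84 and 11.69, and fell by 0.92 ± 0.09 (adjusted p = 0.000453). Snorc, a transmembrane proteoglycan of chondrocytes, was 12.46 and 12.36 against 11.57 and 11.57, a fall of 0.84 ± 0.08 (adjusted p = 0.000493). In each of these the ENT1-null arrays lay below the WT arrays, which follows from naming genes by their statistic at that age. Mia, a secreted cartilage protein, had one of the steepest falls, 1.33 ± 0.13 (8.72 and 8.85 against 7.54 and 7.37). Cnmd, chondromodulin, known to keep vessels out of cartilage, fell by 0.84 ± 0.07, from 12.09 and 12.14 in the 6 month WT arrays to 11.30 and 11.26 (adjusted p = 0.000427). At 2 months Cnmd lay at 12.29 on both WT arrays and at 12.24 on both ENT1-null arrays, a difference of −0.05 ± 0.07. Papss2, which makes the sulfate donor for cartilage proteoglycans, fell by 0.96 ± 0.10 at 6 months (12.12 and 12.31 against 11.32 and 11.19), and was −0.16 ± 0.10 at 2 months.

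The 2 best known SOX9 targets were not among the genes that the naming rule picked, and are given because of that standing. Col2a1, the chain of type II collagen, fell by 0.82 ± 0.17, from 11.07 and 11.17 in the 6 month WT arrays to 10.43 and 10.18 (adjusted p = 0.00841, limma), a call lost without replicate 2 of either 6 month group (−0.69 and −0.76). Acan, aggrecan, was 12.50 and 12.71 against 12.09 and 11.87, a fall of 0.62 ± 0.11 (adjusted p = 0.00414). Both had already been lower at 6 than at 2 months in WT, by −0.84 for Col2a1 and −0.28 for Acan, without passing (adjusted p = 0.193 and 0.349, limma). Across the list, 25 of 26 targets lay below 0 with age in WT (limma, median −0.32, 0 called, 16 at an unadjusted p below 0.05), against 9975 of all 15526 genes (median −0.06). In ENT1-null 23 of 26 fell with age (median −0.80), where 10.2% of all genes did.

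**Figure D4:**
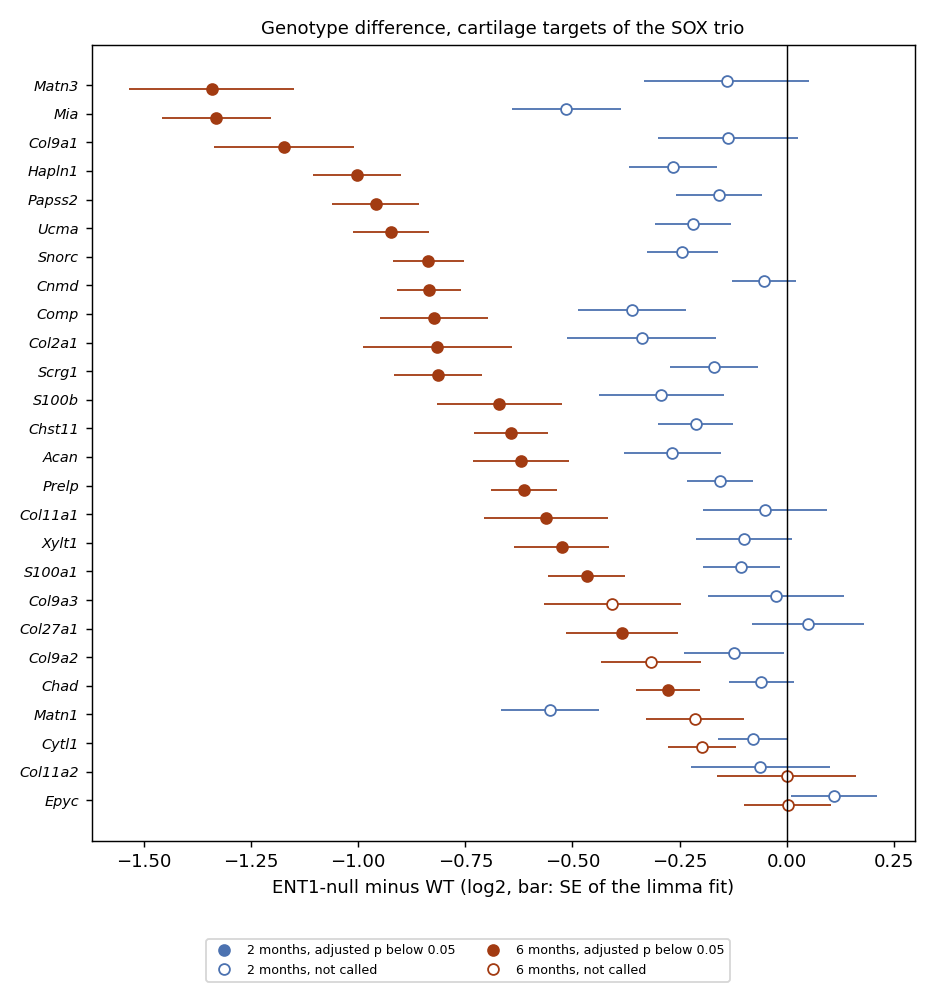
ENT1-null minus WT difference (log2) of the 26 tested cartilage targets, ordered by the value at 6 months, with error bars of 1 SE and filled points where the adjusted p is below 0.05. At 6 months 20 points are filled, all on the left, down to −1.34 for Matn3, and at 2 months none is.

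SOX9 is also known to drive the cartilage microRNA miR-140, which lies within Wwp2, and miR-455 lies within Col27a1, both targets or partners in the lists. The 2 microRNA genes were added after the files were opened, and their probe sets read the gene, not the mature strand. The mature strands found in the RefSeq table are printed with the seed (bases 2 to 8) in capitals. No entry for the 5p strand of miR-140 was found there, so only its 3p strand is printed. No 2 of the 3 share a seed.
miR-140-3p, chr8:107551288-107551308, plus strand: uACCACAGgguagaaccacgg
miR-455-5p, chr4:63256867-63256888, plus strand: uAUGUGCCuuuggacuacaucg
miR-455-3p, chr4:63256904-63256924, plus strand: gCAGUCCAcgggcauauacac

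Mir140 fell by 1.29 ± 0.17 at 6 months, from 10.22 and 10.30 to 9.22 and 8.72 (adjusted p = 0.00106, limma). The 2 month arrays read 10.20 and 10.49 for WT and 9.80 and 9.74 for ENT1-null (−0.58 ± 0.17, adjusted p = 0.122). Mir455 was 7.48 and 7.51 against 6.74 and 7.02 at 6 months, a fall of 0.61 ± 0.12 (adjusted p = 0.00498). Mir455 did not pass at 2 months, with differences of −0.21 to −0.19 under the alternatives other than leaving 1 array out. The host genes gave −0.40 ± 0.14 for Wwp2 (adjusted p = 0.0542) and −0.38 ± 0.13 for Col27a1 (adjusted p = 0.0498) at 6 months. The Col27a1 call was lost without any 6 month (−0.42 to −0.35) or 2 month WT array (−0.38), with no filter (adjusted p = 0.0665), centred medians (0.0668) or all probe sets (0.0527). Wwp2 passed without either 2 month ENT1-null array (−0.40) or 6 month ENT1-null replicate 1 (−0.54), with the filter at the 50th percentile (adjusted p = 0.048), quantile normalization applied again (0.029) or trended and robust eBayes (0.0389, limma).

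Among 18 genes known as cofactors or partners of SOX9, 16 were tested, and 5 were lower and 2 higher at 6 months (median −0.05). That is 7 of 16 called, near the 38.8% of all tested genes, of which 17.6% were lower and 21.2% higher. The lower ones were Trps1, a GATA-type repressor of growth plate chondrocytes (−0.94 ± 0.09, adjusted p = 0.00045), Tead1, the DNA-binding partner of YAP (−0.92 ± 0.15), Nfib (−0.68 ± 0.10) and Nfia (−0.49 ± 0.08), both of the nuclear factor I family, and Smad3, the effector of TGF-beta that joins SOX9 on the Col2a1 enhancer (−0.59 ± 0.09). Trps1 lay at 10.73 and 10.77 in the WT arrays of that age and at 9.88 and 9.74 in the ENT1-null arrays. Higher were Arid5a (0.47 ± 0.14, adjusted p = 0.0332) and Med12, a Mediator subunit (0.26 ± 0.08, adjusted p = 0.0329). The call of Med12 was lost with the replicate block (adjusted p = 0.0501), no filter (0.0553) or only the groups compared (0.0776), and with quantile normalization applied again (difference 0.15), without either 2 month WT array (0.26) and when any array of 6 months other than ENT1-null replicate 1 was left out (0.21 to 0.26), and that of Arid5a without any array of 6 months (0.37 to 0.57). The coactivators Ep300 (0.12, adjusted p = 0.372) and Crebbp (−0.12, adjusted p = 0.271) did not pass. At 2 months none of the 16 passed (limma, 3 at an unadjusted p below 0.05).

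Of 36 genes known to act upstream of the SOX genes in sclerotome and cartilage, 35 were tested. At 6 months 22 were lower and 2 higher, with a median of −0.57, against 17.6% lower, 21.2% higher and a median of −0.03 over all tested genes. Pax1 and Pax9, the paired-box factors of the sclerotome, fell by 1.04 ± 0.11 and 0.96 ± 0.10 (adjusted p = 0.000574 and 0.000542, limma). Pax1 lay at 9.35 and 9.46 in the 6 month WT arrays and at 8.39 and 8.33 in the ENT1-null arrays. Bmpr1b and Bmpr1a, type I receptors of BMP signals, fell by 1.13 ± 0.11 and 0.99 ± 0.10, and Gli2, a hedgehog effector, by 1.03 ± 0.10. Hif1a, the hypoxia factor that sustains Sox9 in cartilage, fell by 0.86 ± 0.09, from 10.85 and 10.94 to 10.08 and 9.98, while its 2 month difference was −0.08 ± 0.09. The 2 higher genes were the receptors Notch1 (0.57 ± 0.10, adjusted p = 0.00335) and Notch2 (0.36 ± 0.09, adjusted p = 0.0162), and the Notch2 call was lost when any array of 6 months other than ENT1-null replicate 2 was left out (0.30 to 0.40). Notch signals are known to oppose Sox9. Of the Notch effectors in the list, Hes1 fell by 0.75 ± 0.12 (adjusted p = 0.00286, limma). Hey1 (0.24, adjusted p = 0.407) and Rbpj (−0.08, adjusted p = 0.652) did not pass, and Notch activity itself was not tested. Ctnnb1, beta-catenin, was −0.04 (adjusted p = 0.809) and Rela of NF-kB −0.04 (adjusted p = 0.719). None of the 35 passed at 2 months (limma, 11 at an unadjusted p below 0.05). The part of the neutrophil, erythroid and muscle differences in these 6 month values was not tested.

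The genes of fates that SOX9 is known to hold back did not move 1 way. In the list of hypertrophy and bone 12 of 14 genes were tested, and at 6 months 3 were higher and 6 lower. Of the 12, 8 lay below 0, with a median of −0.41 against −0.03 over all tested genes. Over all tested genes 21.2% were higher and 17.6% lower, so the higher share was near the background and the lower share above it. Mmp13, the collagenase of hypertrophic cartilage and bone, rose by 1.15 ± 0.26 (adjusted p = 0.0103) and Bglap, osteocalcin, by 1.04 ± 0.20 (adjusted p = 0.00534). Sp7, the osteoblast factor osterix, fell by 0.54 ± 0.11, Mef2c by 0.56 ± 0.11 and Vegfa by 0.74 ± 0.14 (adjusted p between 0.00509 and 0.0082), and the Sp7 call was lost without 6 month WT replicate 2 (−0.48). Alpl, alkaline phosphatase, fell by 0.79 ± 0.10 at 2 months (adjusted p = 0.0427) and by 0.79 ± 0.10 at 6 months (adjusted p = 0.00109). The 2 month call was lost without either 2 month ENT1-null array (−0.80 and −0.78), 2 month WT replicate 1 (−0.81) or either 6 month ENT1-null array (−0.79). It was lost as well with the replicate block (adjusted p = 0.0772), no filter (0.0534) and only the groups compared (0.0598). The call of Mmp13 was lost without 6 month ENT1-null replicate 1 (0.89) or 6 month WT replicate 2 (1.12), and the count of lower genes was 3 without that WT array. The count of higher genes was 1 with the filter at the 50th percentile, and also 1 when 6 month ENT1-null replicate 1 was left out.

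In the fibrous annulus and tendon list of 13 genes 4 were higher and 3 lower at 6 months, near the 21.2% and 17.6% of all tested genes. Mkx, the tendon factor Mohawk, fell by 1.40 ± 0.15 (from 8.97 and 8.99 in 6 month WT to 7.52 and 7.64), Fmod, fibromodulin, by 0.87 ± 0.08 and Dcn, decorin, by 0.36 ± 0.08, a call lost without 6 month ENT1-null replicate 2 (−0.33) or 6 month WT replicate 1 (−0.34). Scx, scleraxis, was −0.43 ± 0.21 (adjusted p = 0.136). Type I collagen rose, Col1a1 by 1.35 ± 0.33 and Col1a2 by 1.19 ± 0.25, with Tnc, tenascin C (1.14 ± 0.32), and Lum, lumican (0.59 ± 0.16), as the other 2. The higher count was 1 or 2 without any 1 array of 6 months, and the call of Col1a1 was lost without 6 month ENT1-null replicate 1 (1.23) or 6 month WT replicate 2 (1.24), that of Tnc without any array of 6 months (1.06 to 1.22) and with trended and robust eBayes (adjusted p = 0.0629), and that of Lum without either 6 month ENT1-null array (0.65 and 0.53) or 6 month WT replicate 1 (0.48).

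Outside cartilage, Sox6 is known to repress slow fibre genes in muscle and embryonic globins in red cell precursors. All 7 tested slow fibre genes lay below 0 at 6 months (median −0.53), where 8215 of all 15526 tested genes did. At 2 months all 7 lay above 0 (median 0.19), and none passed. At 6 months 1 of them, the slow troponin Tnni1, was lower (−0.63 ± 0.19, adjusted p = 0.0352, limma). That call was lost without 6 month WT replicate 2 (−0.34) or either 6 month ENT1-null array (−0.53 and −0.74), and with only the groups compared (adjusted p = 0.0658). The count of lower genes ranged from 0, without any 1 of those 3 arrays or with the filter at the 50th percentile, to 5 without either 2 month ENT1-null array. It was 2 with quantile normalization applied again and 3 with only the groups compared. Of all tested genes 17.6% were lower. The general skeletal muscle list had a median of −2.34 at 6 months and 1.04 at 2 months, and its part in the slow fibre values was not tested. The embryonic globins Hbb-y, Hbb-bh1 and Hba-x lay under the filter level in every group (4.58 to 5.30). Bcl11a, the partner of SOX6 in globin silencing and also a B cell factor, rose by 1.47 ± 0.19 (adjusted p = 0.00109) beside the erythroid and neutrophil markers.

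The genes most like each member were found by the root mean square difference between profiles of the 8 arrays, each gene centred on its own mean, over 13767 named genes. Nearest to Sox9 were Car5b, a mitochondrial carbonic anhydrase (0.05), Rian, a non-coding RNA of the Dlk1-Dio3 imprinted region (0.05), Sod3, the extracellular superoxide dismutase (0.06), Fibin (0.06) and Smim31 (0.06). These 5 genes fell by 1.05 to 1.18 at 6 months. Nearest to Sox5 were Neo1, the receptor neogenin (0.04), Plekhh2 (0.05), Smarca1, a chromatin remodeller (0.06), Cnmd (0.06) and Dsel, of dermatan sulfate epimerization (0.07), with falls of 0.83 to 0.90. Nearest to Sox6 were Arhgap27 (0.02), Azi2 (0.03), Trim11 (0.03), Pus3 (0.04) and Stamos (0.04). No comparison of groups was called in Sox6 or in these 5 genes, so this likeness is largely one of arrays within groups. Arhgap27, like Sox6, was lower in replicate 1 than in replicate 2 of 6 month ENT1-null (6.93 and 7.17). The distance between Sox9 and Sox5 was 0.14, which placed Sox5 at rank 90 from Sox9 and Sox9 at rank 204 from Sox5. The distance between Sox9 and Sox6 was 0.52. The 8 arrays fall into 4 groups, so the likeness to Sox9 and Sox5 rests mostly on the 6 month ENT1-null arrays.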

How the data were processed

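Gene expression in 8 pooled annulus samples was measured on Affymetrix arrays, from 200 ng of total RNA per the labels' protocols. The deposited log2 values were made by the authors with RMA, per the submitters' processing notes, which corrects background, normalizes quantiles and sums probes into probe sets. Its version and the array's genome build were not given in the sources used here. Array medians lay between 6.77 and 6.82.

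Of 41345 probe sets 23521 had 1 gene symbol, 1814 several and 16010 none. Where a gene had several of these the brightest stood for it, and the dimmest 30% of genes by mean (below 6.21) were left out. Group means were fitted in R 4.3.3 by limma 3.58.1 (4 residual degrees of freedom), with eBayes and Benjamini-Hochberg adjustment over the 15526 tested genes, called below 0.05. The fit was tested on simulated data with independent noise and few changed genes, unlike the 6 month comparison, so that test checks only the code. Groups came from the sample titles. Same-numbered arrays did not deviate together in every pair of groups (r from −0.39 to 0.41 over genes), so no pairing was used.

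The members and lists were chosen with earlier results of these data known. Genes named were the members, the tested SOX genes, and of each list those called at 2 months, the 6 with the largest called statistic at 6 months and up to 2 called the other way, plus the 5 nearest profiles of each member, passing over predicted genes, RIKEN clones, receptors of smell and small RNAs. Others were chosen after their values were seen. Alternatives tried were quantile normalization applied again, no filter or one at the 50th percentile, centred medians, all probe sets, a replicate block, trended and robust eBayes, only the groups compared, and each array left out.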

Additional observations from a re-analysis of the deposited data

Results flagged for a closer look

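The genotype difference changed between 2 and 6 months, by the interaction term of the limma fit, in Sox9 (−0.75 ± 0.12) and Sox5 (−0.72 ± 0.11), each with an adjusted p of 0.0383. Over all tested genes 1.89% passed as lower and 2.56% as higher. The same test passed in 6 of 26 cartilage targets: Mia (−0.82), Papss2 (−0.80), Cnmd (−0.78), Hapln1 (−0.74), Ucma (−0.70) and Snorc (−0.59). The count of targets was 3 with the replicate block and 0 to 2 with 1 array left out. The interaction passed in 10 of 35 upstream genes (0 to 2 with 1 array left out): Meox2 (−1.48), Creb5 (−1.31), Bmp2 (−1.12) and Bmpr2 (−0.58), named after their values were seen, and Bmpr1b (−0.92), Hif1a (−0.78), Pax1 (−0.76), Bmpr1a (−0.72), Gli2 (−0.65) and Pax9 (−0.65), in the partner Trps1 (−0.66), and in Mkx (−1.01) and Fmod (−0.68). In all 21 of these genes the difference was more negative at 6 months, and the adjusted p lay between 0.0383 and 0.0497 (limma). That shared direction follows in part from the naming, since most were named by their falls at 6 months or after their values were seen. Bmp2 and Meox2 lay above 0 at 2 months (0.39 and 0.17, not called) and below 0 at 6 months (−0.73 and −1.31). In WT both were higher at 6 than at 2 months, by 0.56 and 0.45, without passing. With no filter on low values none of the 21 passed. Groups of 2 arrays were too small to look for single arrays that stand apart.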

How the results depend on the processing

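The 6 month falls of Sox9 and Sox5 and their falls with age in ENT1-null kept direction and call under each alternative run. Sox9 at 6 months ranged from −1.20 to −1.03 and Sox5 from −0.96 to −0.82. At 2 months neither passed under any alternative. The interaction did not pass with no filter (Sox9 −0.75, Sox5 −0.72). With 1 array left out it ranged from −0.83 to −0.67 for Sox9 and −0.78 to −0.67 for Sox5. Sox6, never called, changed sign with quantile normalization applied again at 6 months (−0.091), in the interaction (−0.019) and with age in WT (0.024). With 1 array left out Sox6 ranged from −0.13 to 0.0094 at 2 months, −0.11 to 0.14 at 6 months, −0.049 to 0.20 in the interaction, −0.018 to 0.0093 with age in WT and −0.053 to 0.19 with age in ENT1-null. Cartilage targets lower at 6 months numbered 14 to 21. With the replicate block the Sox9 fall at 6 months was −1.11 (adjusted p = 0.00114), and 1 gene was called at 2 months against 106, 353 in the interaction against 691. Of all tested genes 0 to 358 were called at 2 months, 3670 to 6064 at 6 months, 0 to 1102 in the interaction and 1519 to 3506 with age in ENT1-null. A comparison of other probe sets of the members was not run, since each has 1.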
